A study of Drosophila melanogaster with 18 samples.

Results

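The Iroquois genes mirr (mirror), ara (araucan) and caup (caupolican) are followed here across 6 groups of Drosophila melanogaster egg chambers. They were taken by name from the probe-to-gene table of the array platform, which gave 1 probe set for each gene, so 3 of 10825 named genes and 3 of the 13966 fly probe sets on the array. All 3 lie side by side on chromosome arm 3L, in the order ara, caup, mirr in the Release 6 gene table.

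Iroquois genes encode homeodomain transcription factors of the TALE class and form a single gene complex in the fly. In the ovary, mirr is known to be expressed in follicle cells near the dorsal anterior corner of the oocyte, where the oocyte's ligand Gurken activates the epidermal growth factor receptor (EGFR). In mutant studies mirr acts there in setting the dorsoventral axis. ara and caup are best known from the wing disc, where they act ahead of the proneural genes achaete and scute.

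Every sample was total RNA of hand-dissected egg chambers of stages 9 to 10 from females aged 6 to 8 days, kept with yeast at 23 °C for 24 h. EGFR gain was CY2-GAL4, UAS-lambda-Top, a constitutively active receptor. EGFR loss was CY2-GAL4, UAS-dnEGFR, a dominant-negative receptor. BMP gain was CY2-GAL4, UAS-tkv*, an activated form of Thickveins, a receptor for bone morphogenetic proteins (BMP). BMP loss was CY2-GAL4, UAS-Dad, an inhibitory Smad. CY2-GAL4 drives transgenes in follicle cells and was shared by these 4 genotypes. OreR flies without driver or transgene were the wild type, so a difference from wild type can also come from the strain or the driver, which cannot be told apart here from the pathway. Driver-only flies were not analysed here. Round 1 held EGFR gain, EGFR loss, BMP gain and their wild type (A), and round 2 held BMP loss and its wild type (B). Each group held 3 arrays. A replicate was 100 egg chambers out of 300 of its background, gathered 20 at a time. The p-values therefore measure the spread between these collections, which may be partly technical.

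Array medians lay at 4.45 to 4.52 on the log2 scale in round 1 and at 4.02 to 4.04 in round 2, so levels were compared only within a round. The number of arrays limits the precision. The driven genes read as labelled by 1 probe set each. One of 2 Egfr probe sets was higher by 1.87 in EGFR gain, the dimmer of 2 tkv probe sets by 1.81 in BMP gain, and Dad by 4.39 in BMP loss. Neither Egfr probe set was called in EGFR loss. The mean of 8 follicle cell markers ranged from 10.74 to 11.50 over the arrays of round 1 and from 10.25 to 10.42 in round 2. That of 8 germline markers ranged from 7.82 to 8.34 in round 1 and from 7.52 to 7.71 in round 2. In EGFR loss replicate 3 the 3′ minus 5′ difference of the actin control probe sets was 2.89, against 0.85 to 1.63 on the other 17 arrays. The differences of the Iroquois genes from EGFR loss are given with and without it.

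mirr was low in egg chambers with blocked EGFR and close to wild type in the other perturbations. Its log2 values were 1.11, 1.36 and 2.58 in EGFR loss, against 4.52, 4.59 and 4.18 in wild type A. Every EGFR loss array was lower than every wild type A array, as for 10.7% of all probe sets. The means were 1.68 ± 0.79 in EGFR loss and 4.43 ± 0.22 in wild type A (SD, n = 3 each), a log2 change of -2.74 ± 0.31 (SE, limma adjusted p = 0.00025). mirr ranked 31st by p among the 13966 probe sets. Since the EGFR loss values were not above background, the fold has only a bound. Set against the brightest mouse control probe set of each EGFR loss array, mirr was at least 2.30-fold lower by the group means. That bound carries no sampling error. mirr was the only one of the 3 Iroquois genes called in this comparison, in which 1.48% of all probe sets were called lower. The whole egg chamber was measured, so fewer cells expressing a gene and less RNA per cell cannot be told apart.

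The percentile of mirr on its array was 15.5, 17.6 and 31.6 in EGFR loss, and 50.3, 50.9 and 46.6 in wild type A. None of the EGFR loss arrays had mirr above the brightest of 4 mouse control probe sets, which have no target in fly RNA, whereas every array of the other groups did. That control was itself brighter on the EGFR loss arrays, at 2.98 to 3.36, against 1.32 to 2.48 on the other arrays of round 1. With values raised to the 25th percentile of their array, the change was -2.22 (adjusted p = 3.1e-05). The highest of the EGFR loss values came from replicate 3. Without that array the change was -3.19 (1.6e-05). A fit to the 6 arrays of this comparison alone, which has fewer arrays from which to estimate the spread, did not call it (adjusted p = 0.13). The fits also differ in the spread they use. The SD of mirr was 0.79 in EGFR loss and 0.21 to 0.28 in the other groups. The SE of the main fit is pooled over all groups, where the SD was 0.39, so it is smaller than the spread in EGFR loss alone would give.

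Mean levels of cell type markers also differed between the groups, and not only in EGFR loss. The mean log2 value of 6 measured muscle genes of 8 listed was 4.53 to 5.15 on EGFR loss arrays, against 3.73 to 3.85 in wild type A. For 4 fat body genes of 6 listed it was 3.98 to 5.39, against 2.73 to 3.02. For 8 follicle cell genes of 9 listed it was 10.7 to 11.1 in EGFR loss and 11.1 to 11.4 in wild type A. For 8 germline genes of 9 listed it was 7.82 to 7.98 in EGFR loss and 8.09 to 8.28 in wild type A. Called lower in EGFR loss were 3 of 8 follicle cell genes (the yolk protein genes Yp1, Yp2 and Yp3) and 2 of 8 germline genes (osk and piwi). Called higher were 2 of 6 muscle genes (Mlc2 and Prm) and 2 of 4 fat body genes (Lsp2 and Obp99b). The other genes of these lists were not called. Of all probe sets 3.17% were called in either direction and 1.48% lower. In BMP gain, where mirr stood near wild type, the muscle mean was 4.07 to 4.52 and the fat body mean 3.07 to 4.09. The follicle cell mean there was 11.4 to 11.5 and the germline mean 8.29 to 8.34. In EGFR gain the same 4 means were 2.91 to 3.38, 2.59 to 3.17, 11.1 to 11.3 and 7.99 to 8.06. The mean of 6 late eggshell genes was 8.16 to 9.19 in EGFR loss and 8.38 to 9.04 in wild type A. It was 7.36 to 8.14 in BMP gain and 7.69 to 8.46 in EGFR gain. In EGFR gain minus EGFR loss their median change was -0.73. Cp15 and Cp18 were called lower there and 4 were not called, where 2.1% of all probe sets were called. The follicle cell list as a whole had a median change of -0.33 in EGFR loss, against -0.0038 over all probe sets. The part of these shifts in the mirr result was not tested.

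**Figure D1:**
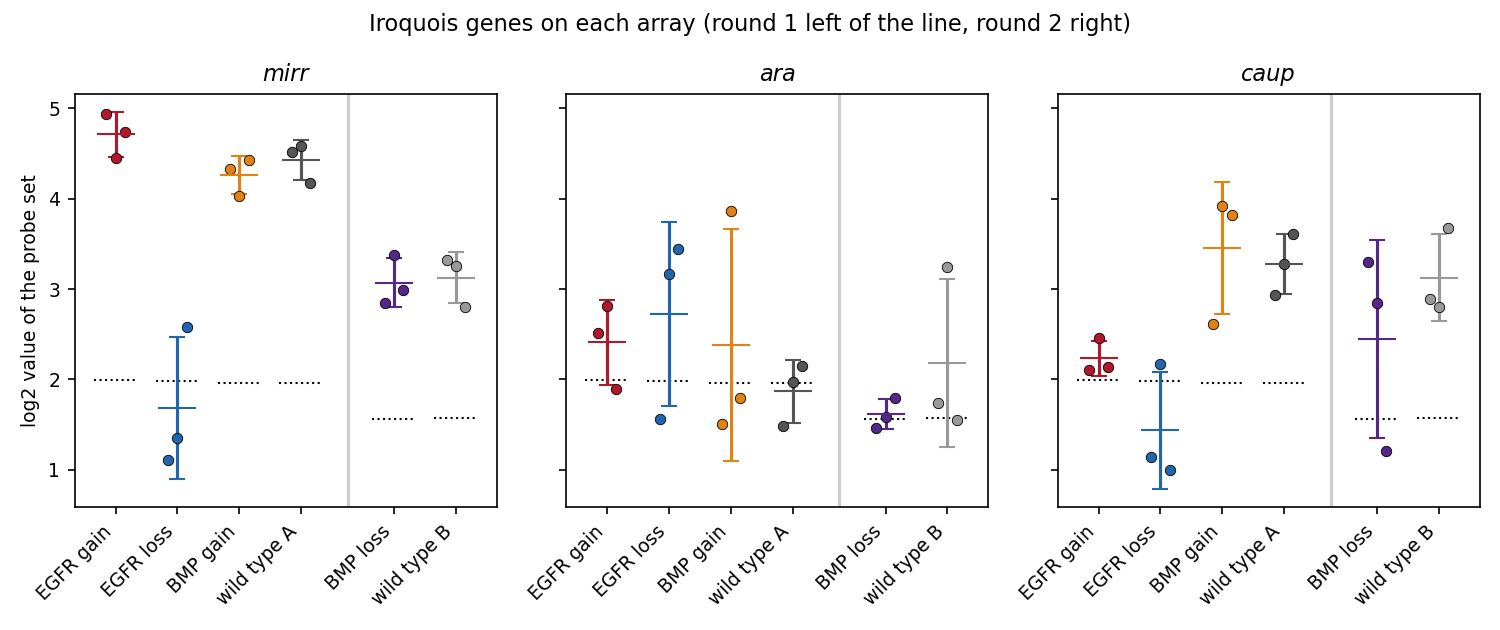
Log2 value of the mirr, ara and caup probe sets (y axis) on each of 18 arrays, by group (x axis). Points are arrays, bars are the mean ± SD of 3 arrays, and dotted lines are the mean 25th percentile of the group's arrays. The mirr values in EGFR loss, 1.11 to 2.58, lie under all other round 1 values of the gene, while the ara values of the 3 perturbations in round 1 overlap those of wild type A.

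With constitutively active EGFR no shift of mirr passed the test. mirr read 4.94, 4.45 and 4.74 in EGFR gain, and these arrays overlapped those of wild type A. The means were 4.71 ± 0.25 and 4.43 ± 0.22, and the change of 0.28 ± 0.31 was not called (adjusted p = 0.79). Its 95% interval ran from -0.38 to 0.95, so a 2-fold rise lies just outside it. In this comparison 2.81% of probe sets were called, 1.52% of them all as higher, and no Iroquois gene was among them.

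The direct comparison of active with blocked receptor holds the driver and the round constant. mirr was higher in EGFR gain than in EGFR loss, with a measured log2 difference of 3.03 ± 0.31 (adjusted p = 0.00020), and ranked 13th of all probe sets by p. Against the brightest mouse control of the EGFR loss arrays it was at least 2.80-fold higher by the group means. With values raised to the 25th percentile the difference was 2.50. Without EGFR loss replicate 3 it was 3.47. In this comparison 0.952% of probe sets were called higher. The arrays did not overlap, as for 8.41% of probe sets in that direction. The comparison shares the EGFR loss arrays with the one against wild type A, so both calls rest on the same 3 low values. In a fit to these 6 arrays alone the difference was not called (adjusted p = 0.15).

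Neither change of BMP signalling moved mirr past the threshold. It read 4.33, 4.03 and 4.43 in BMP gain, overlapping wild type A, with a change of -0.17 ± 0.31 (adjusted p = 0.93, 95% interval -0.83 to 0.50). In round 2 it read 2.85, 3.37 and 2.99 in BMP loss, against 3.32, 3.26 and 2.81 in wild type B. Those arrays overlapped too, and the change was -0.06 ± 0.31 (0.97, 95% interval -0.72 to 0.61). Called in either direction were 2.39% of probe sets in BMP gain and 2.29% in BMP loss, with no Iroquois gene among them. A change of 2-fold in either direction lies outside both intervals.

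mirr in EGFR loss was also compared with the other perturbations. Against BMP gain, with the same driver in the same round, mirr was lower in EGFR loss by -2.58 ± 0.31 (adjusted p = 0.00048; -3.03 without EGFR loss replicate 3), where 0.917% of probe sets were called lower. The EGFR loss response minus the BMP loss response, each taken against the wild type of its round, was -2.69 ± 0.44 (0.025), where 0.115% of probe sets were called lower. Neither call held in fits to the arrays of the comparison alone (0.15 and 0.16). The call between the loss responses also did not hold without wild type A replicate 1 (0.061) or 2 (0.068), wild type B replicate 3 (0.068), EGFR loss replicate 1 (0.057) or 2 (0.068), or BMP loss replicate 1 (0.057) or 2 (0.067). Between the responses to BMP gain and BMP loss the difference was -0.11 ± 0.44 (0.98), where 0.43% of probe sets were called. Between EGFR gain and BMP gain the mirr arrays did not overlap, as for 9.64% of probe sets in that direction, and the difference of 0.45 ± 0.31 was not called (0.66), where 1.27% were. In round 1 the order of mirr was thus EGFR gain, wild type A, BMP gain, EGFR loss, and only the step down to EGFR loss passed the test.

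caup was also lowest in EGFR loss, without passing the test, and was above all mouse controls on 0 of 3 arrays there and on 3 of 3 in every other group. It read 1.14, 2.18 and 0.99 in EGFR loss, against 2.94, 3.28 and 3.61 in wild type A. No array of one group overlapped the other, which held in this direction for 10.7% of all probe sets. The means were 1.44 ± 0.64 in EGFR loss and 3.28 ± 0.33 in wild type A, and the difference of -1.84 ± 0.51 gave an adjusted p of 0.073 (unadjusted 0.0029, 95% interval -2.93 to -0.75). With an intensity trend and robust moderation the adjusted p was 0.054, and with values raised to the 25th percentile of each array the difference was -1.25 (0.12). Without EGFR loss replicate 3 it was -1.62 (0.19). Set against the brightest mouse control of each EGFR loss array, as for mirr, the bound on the fall of caup from wild type A was 1.035-fold. It is taken from group means and carries no sampling error. Wild type A replicate 1, at 2.94, lay under the mean of those controls, so the bound does not set a fall apart from no difference. That bound was 1.17-fold against BMP gain. Against EGFR gain there was none, since its caup mean of 2.23 lay under the mean of those controls, 3.23. The interval for caup overlaps that of mirr, and the difference between the responses of these genes was not tested.

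caup in EGFR gain read 2.11, 2.45 and 2.14, under all 3 wild type A arrays, as 10.6% of probe sets did. The difference from wild type A was -1.04 ± 0.51 and was not called (adjusted p = 0.40). EGFR gain minus EGFR loss was 0.79 ± 0.51 (0.54), with overlapping arrays. Against BMP gain all EGFR gain arrays were lower, as for 9.47% of probe sets, by -1.22 ± 0.51 (0.38). caup therefore stood under wild type A with both receptor transgenes, without a call in either.

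In the BMP perturbations caup scattered. It read 2.61, 3.92 and 3.82 in BMP gain (0.18 ± 0.51 against wild type A, adjusted p = 0.97), and 3.29, 2.84 and 1.21 in BMP loss, against 2.89, 2.80 and 3.68 in wild type B (-0.68 ± 0.51, 0.64). Both pairs of groups overlapped. EGFR loss minus BMP gain was -2.02 ± 0.51 (0.062) with no overlap, as for 10.2% of probe sets. That difference was past the threshold with an intensity trend (0.044), with dim probe sets left out (0.048) and without BMP gain replicate 1 (0.046), and not in the fit as planned. In round 1 caup was highest in BMP gain, then in wild type A, then in EGFR gain, and lowest in EGFR loss, and no neighbours in this order differed by the test.

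**Figure D2:**
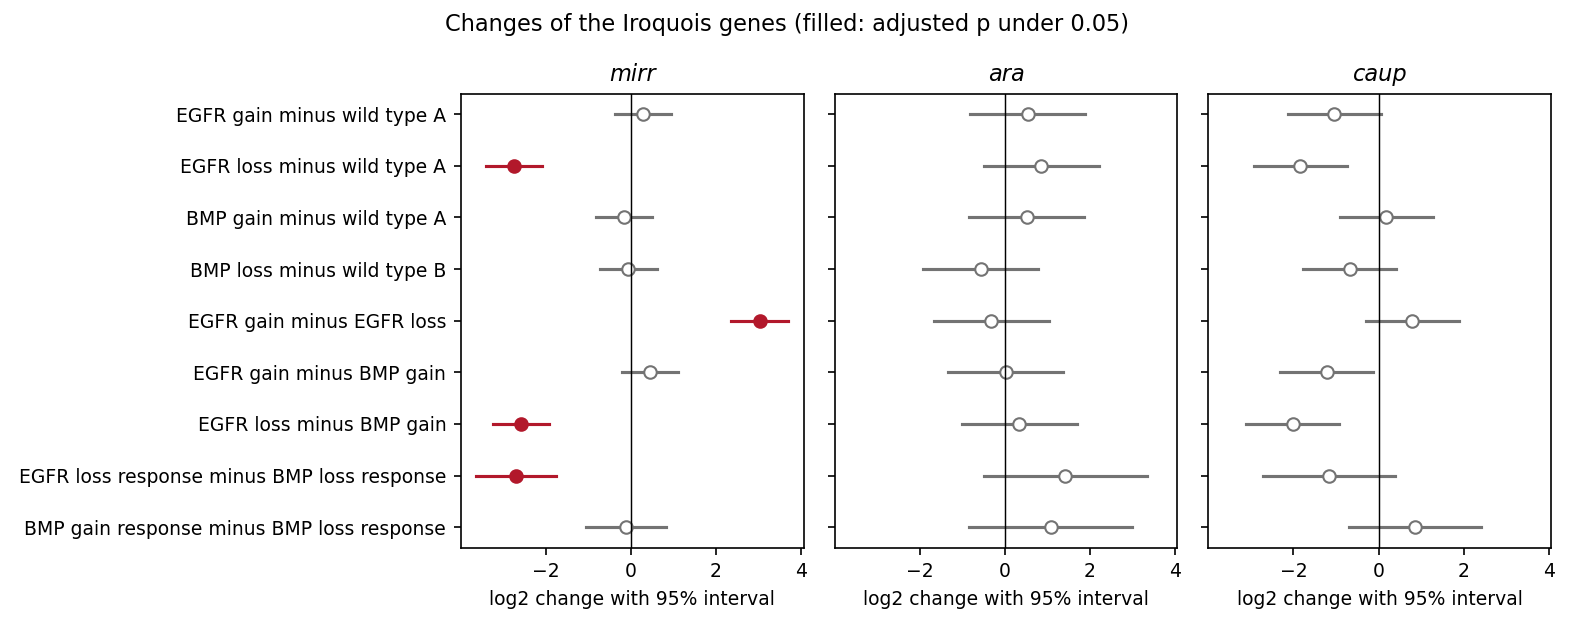
Log2 change (x axis) of mirr, ara and caup with its 95% interval in 9 comparisons (y axis), from the fit over all 18 arrays. Filled points passed an adjusted p of 0.05. They are 4 comparisons of mirr, all of which hold the EGFR loss arrays, and none of ara or caup.

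No difference of ara between groups was called. It read 2.52, 2.81 and 1.89 in EGFR gain, 1.57, 3.17 and 3.44 in EGFR loss and 1.50, 3.86 and 1.79 in BMP gain, against 1.48, 1.97 and 2.15 in wild type A. All 3 perturbations overlapped wild type A. The differences were 0.54 ± 0.63 (adjusted p = 0.81), 0.86 ± 0.63 (0.54) and 0.52 ± 0.63 (0.87). The difference in EGFR loss was 0.50 without EGFR loss replicate 3, and that in BMP gain had the other sign, -0.22, without BMP gain replicate 2. In round 2 ara read 1.47, 1.59 and 1.80 in BMP loss, against 1.74, 3.25 and 1.55 in wild type B, a difference of -0.56 ± 0.63 (0.79). In round 1 the mean of ara was highest in EGFR loss, then in EGFR gain, BMP gain and wild type A, with no neighbours in this order apart by the test. The first place rests on EGFR loss replicate 3, without which EGFR gain minus EGFR loss was 0.043.

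The ara probe set was dim. It lay under the 25th percentile on 6 of 18 arrays, and on 12 of 18 it was above all 4 mouse controls. The same counts were 3 and 15 for caup and 2 and 15 for mirr. The SD within groups, pooled over the 6 groups, was 0.81 for ara, 0.65 for caup and 0.39 for mirr. Among probe sets of a mean within 0.5 of their own, 50.3% spread less than ara, 32.4% less than caup and 24.9% less than mirr. In wild type A it was above all mouse controls on 1 of 3 arrays, so a fall of ara from that level could hardly be read. The 95% interval of its difference in EGFR loss ran from -0.50 to 2.21.

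No gene beside the complex was called in EGFR loss. The 3 nearest genes with a probe set before ara were sowah, CG4069 and Pmm2, and after mirr SmD1, a core spliceosomal protein gene, Ptp69D, a receptor tyrosine phosphatase gene, and CG32109. Between caup and mirr lie 4 long noncoding RNA genes without a named probe set here. In EGFR loss against wild type A the flanking genes changed by -0.20 to 0.14 where 3.17% of all probe sets were called. In EGFR gain minus EGFR loss 1 of the 6 was called, where 2.1% of all probe sets were. sowah read 7.43, 7.07 and 7.15 in EGFR gain, against 6.77, 6.57 and 6.67 in EGFR loss, higher by 0.55 ± 0.10 (adjusted p = 0.012). That call ended without EGFR gain replicate 1 (0.053) or EGFR loss replicate 2 (0.052), and in a fit to the 6 arrays alone (0.37).

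**Figure D3:**
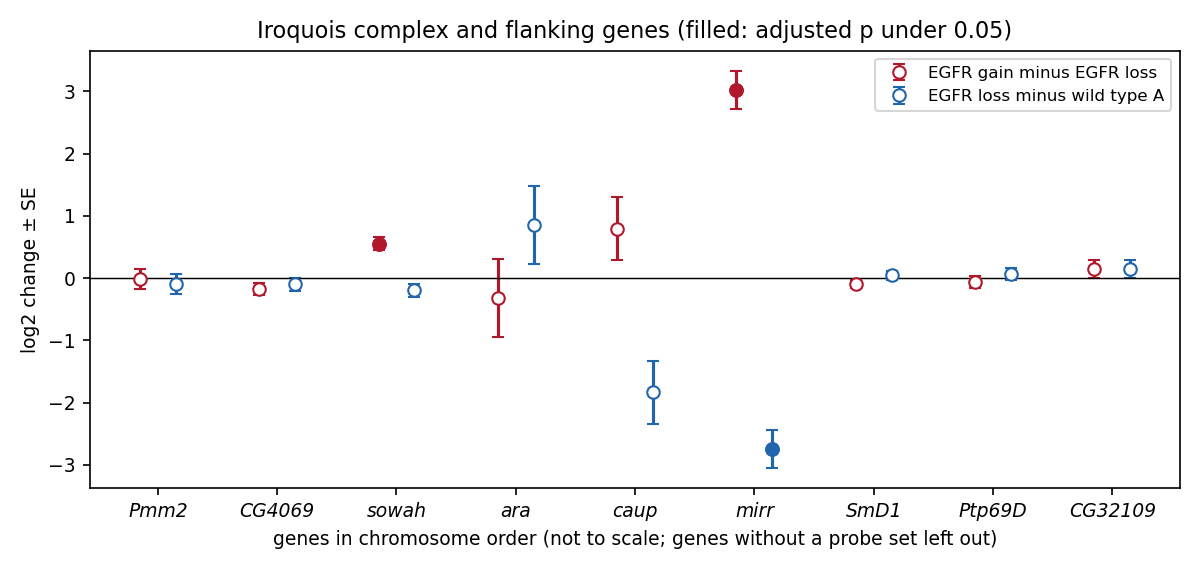
Log2 change ± SE (y axis) of the Iroquois genes and the 3 nearest genes with a probe set on each side (x axis, in chromosome order, not to scale). Red points are EGFR gain minus EGFR loss and blue points EGFR loss minus wild type A, filled where called. mirr, at 3.03 and -2.74, stands apart from its flanking genes, which lie between -0.20 and 0.55.

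The correlation of mirr with caup changed sign when the EGFR loss arrays were left out. After subtraction of the wild type mean of the round, the Pearson correlation over 18 arrays was 0.50 between mirr and caup, -0.27 between mirr and ara and -0.14 between ara and caup. Over the 15 arrays without EGFR loss it was -0.50, -0.05 and 0.10. These are descriptions, since arrays of a group share their treatment.

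The same measure over the 6741 probe sets with 1 gene and a group mean at or above the table's median picked the genes most like mirr. They were fabp, a fatty acid binding protein gene (r = 0.90), Pp1-87B, a catalytic subunit gene of protein phosphatase 1 (0.89), LeuRS, a leucyl-tRNA synthetase gene by 1 of its probe sets (0.88), CG17019 (0.87) and the T-box transcription factor gene org-1 (0.87). The likeness rests on the EGFR loss arrays, since over the other 15 arrays these correlations lay between -0.38 and 0.36. Since these genes were chosen for following mirr on those arrays, their values there are a description with no test. Among these genes org-1 had the largest measured change in EGFR loss. It read 2.58, 1.58 and 3.10 in EGFR loss, against 4.34, 5.13 and 4.29 in wild type A, a difference of -2.16, and 4.56, 4.24 and 4.22 in EGFR gain. Its EGFR loss values were under the brightest mouse control of each array (3.34, 2.98 and 3.36), as were those of mirr. The size of either fall is therefore uncertain.

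The difference between EGFR loss and wild type A was -1.95 for LeuRS, -0.64 for Pp1-87B, -0.45 for fabp and -0.16 for CG17019. LeuRS, unlike mirr, was under the wild type mean of its round on every array of the other perturbations as well. It lay there by -0.65 to -0.35 in EGFR gain, -0.75 to -0.51 in BMP gain and -0.71 to -0.49 in BMP loss. Most opposite to mirr were CG14270 (r = -0.87), Adck1 (-0.85) and CG8399 (-0.85), higher in EGFR loss by 0.62, 0.47 and 0.42. For ara the nearest were Jon25Bii, a serine protease gene of the Jonah family (0.71), CG42700 (0.71) and p115, a Golgi vesicle tethering factor gene (0.71). For caup they were cib, which encodes the actin-binding protein Ciboulot (0.85), CG31998 (0.83) and foi, a zinc transporter gene (0.83).

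**Figure D4:**
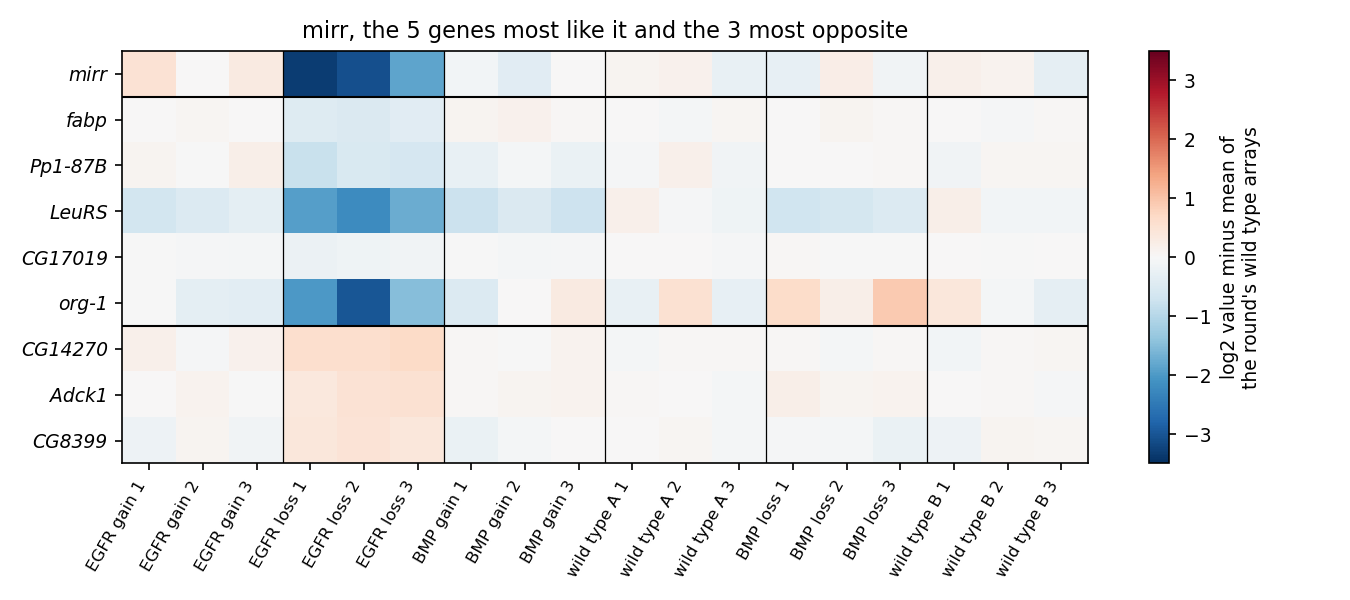
Log2 value minus the mean of the wild type arrays of the round (colour) on each of 18 arrays (x axis), for mirr, the 5 genes most like it and the 3 most opposite (y axis). The shared shift is in the 3 EGFR loss arrays, which also set the correlations by which these genes were chosen. LeuRS also lies under wild type in the other perturbations.

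The genes that act before and after mirr in follicle cells were taken from a list of 20 dorsoventral patterning genes, 16 of them measured. Neither grk nor cic was called against wild type. The EGFR ligand gene spi changed by -0.60 in BMP gain (adjusted p = 0.034) and by -0.82 in BMP loss (0.0058). Of all probe sets, 2.39% and 2.29% were called there. The call in BMP gain ended with any single array left out, at up to 0.12. Both ended in fits to the arrays of the comparison alone (0.073 and 0.11). grk, which encodes the ligand Gurken, changed by -0.06 to -0.01 in the 4 perturbations, and cic, which encodes the repressor Capicua that acts on mirr, by -0.21 to -0.04 on its brighter probe set. The other cic probe set read 4.25, 4.23 and 3.68 in EGFR gain, under the 4.80, 4.52 and 4.50 of wild type A. The arrays lay apart in that direction for 10.6% of probe sets. The difference of -0.55 was not called (adjusted p = 0.18). In EGFR loss 2 of the 16 genes fell, 18w and bun, none rose, and the median change was -0.06, against 0.00 over all probe sets, of which 1.48% were called lower and 3.17% in either direction. In EGFR gain kek1, 18w and wbl rose, bun fell and 12 were not called, with a median of 0.00, where 2.81% of all probe sets were called. bun, a TSC-22 family transcription factor gene, changed by -0.59 in EGFR gain (adjusted p = 0.022) and -0.54 in EGFR loss (0.034), and each call ended with any of 5 of the 6 arrays left out, at up to 0.096 and 0.11.

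kek1, a feedback inhibitor gene of EGFR, was likewise higher in EGFR gain than in EGFR loss, where all 3 of its values were under the brightest mouse control. It read 6.00, 5.85 and 5.98 in EGFR gain, 2.30, 2.84 and 1.60 in EGFR loss and 4.18, 4.37 and 3.06 in wild type A. The EGFR loss arrays lay under all of wild type A, as for 10.7% of probe sets, and under all of EGFR gain, as for 8.41%. EGFR gain minus EGFR loss was 3.70 ± 0.49 (adjusted p = 0.0014). Against wild type A it was 2.08 ± 0.49 in EGFR gain (0.037, and not called with any single array left out, at up to 0.17) and -1.62 ± 0.49 in EGFR loss (0.099). The Toll-family receptor gene 18w was likewise on both sides of wild type A, by 1.15 ± 0.16 in EGFR gain (0.0013) and -0.80 ± 0.16 in EGFR loss (0.013, ending without wild type A replicate 1, at 0.056, or 3, at 0.051). In BMP gain, where mirr stood near wild type, 18w was higher as well, by 1.14 (0.0012, and 0.060 in a fit to 6 arrays alone). Fitted on 6 arrays only, 18w kept its call in EGFR gain (0.038). The calls of 18w in EGFR loss (0.26), of kek1 in EGFR gain (0.13) and between the transgenes (0.056), of wbl in EGFR gain (0.16) and of bun in EGFR gain (0.12) and EGFR loss (0.29) ended there. Whether the responses of mirr, kek1 and 18w differ was not tested.

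pip, which encodes a sulfotransferase made by ventral follicle cells, was not called. It read 2.87, 2.63 and 3.26 in EGFR gain, 4.55, 4.59 and 4.51 in EGFR loss, 4.73, 4.92 and 5.39 in BMP gain and 3.94, 3.82 and 3.14 in wild type A. The mean was highest in BMP gain, at 5.01, in a group where mirr stood near wild type. It was 4.55 in EGFR loss, 3.63 in wild type A and 2.92 in EGFR gain. EGFR gain minus EGFR loss was -1.63 (adjusted p = 0.34), and EGFR loss minus wild type A was 0.92 (0.57). The SE is pooled over groups and holds an SD of 2.14 in BMP loss, where 1 array read -0.42. With values raised to the 25th percentile the difference between the receptor transgenes was called (0.041). wbl, which encodes an endoplasmic reticulum protein that Pipe needs, was higher by 0.82 in EGFR gain (0.010). That call ended without wild type A replicate 2 (0.053) or EGFR gain replicate 1 (0.054).

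Other genes tied to mirr in the egg chamber were not called in any comparison with wild type. They were fng, a glycosyltransferase gene of the Notch pathway, at -0.07 to 0.38, br, a zinc finger gene of the dorsal appendage primordia, at -0.91 to 0.04 on its brightest probe set, and the T-box genes mid and H15 of the posterior follicle cells, at 0.11 to 0.67 and -0.20 to 0.67. Of 6 measured genes among 8 of the JAK/STAT pathway and posterior fate, none was called in the 4 comparisons with wild type or between the EGFR transgenes. The same was true of 8 measured genes among 12 of the Ras and MAP kinase cascade.

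**Figure D5:**
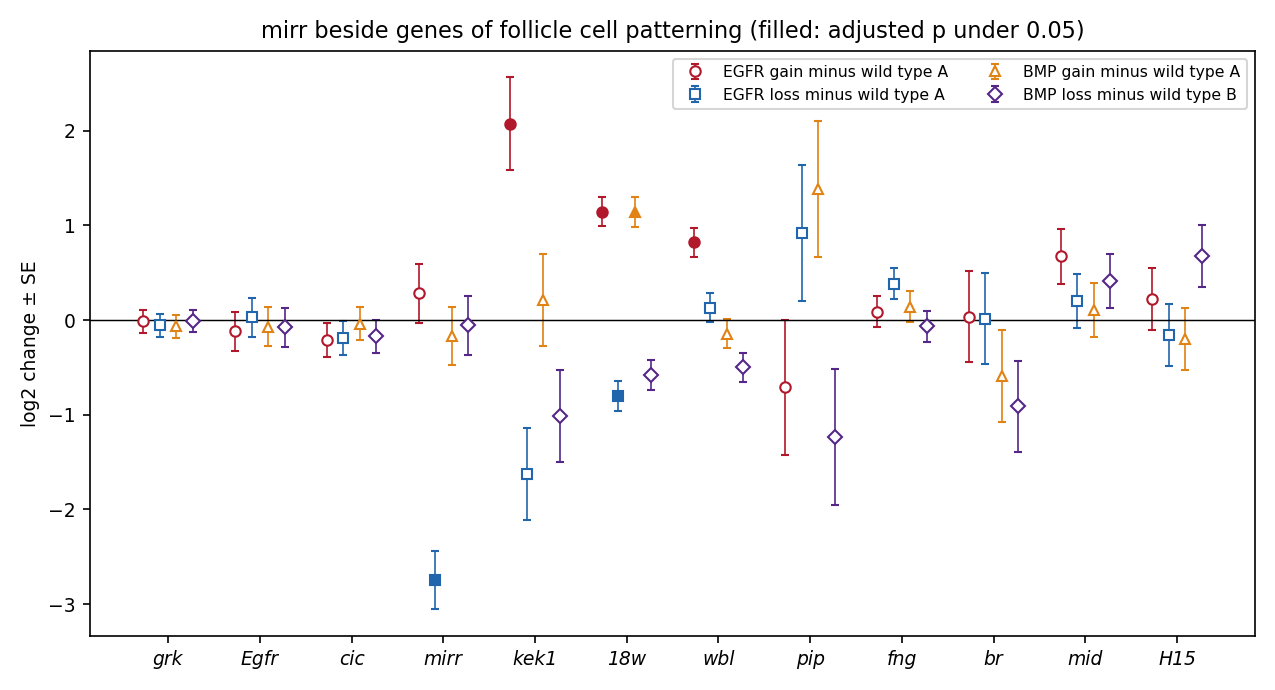
Log2 change ± SE (y axis) of mirr and 11 genes of follicle cell patterning (x axis; Egfr, cic and br by their brightest probe set) in 4 comparisons with the wild type of the round. Filled points passed an adjusted p of 0.05. mirr has its call in EGFR loss, kek1 and wbl in EGFR gain, and 18w in both and in BMP gain.

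Genes known to act with the Iroquois genes in imaginal discs were mostly dim. Of 11 listed, 10 were measured, and none was called in EGFR gain, EGFR loss or BMP gain against wild type A or between the EGFR transgenes. In BMP loss, where 2.29% of all probe sets were called, hh, the Hedgehog ligand gene, fell by 3.14 between dim values, and its change was -0.36 and not called (0.079) with values raised to the 25th percentile. The proneural genes ac and sc, targets of ara and caup in the wing disc, changed by 0.58 and 0.93 in EGFR loss and were not called. Of 4 other TALE homeobox genes listed only achi was measured, by probe sets that may also read its neighbouring copy vis. It changed by -1.10 in EGFR loss on the brighter probe set and by 0.30 on the other, neither called.

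Of 14 measured BMP pathway genes among 16 listed, tkv fell and cv-2 rose in EGFR loss and 12 were not called, where 3.17% of all probe sets were called. tkv, by its brighter probe set, changed by -0.98 (adjusted p = 9.6e-05, and 0.065 in a fit to the 6 arrays alone). Its dimmer probe set had means of 6.13 in EGFR loss, 6.53 in wild type A and 6.41 in EGFR gain. That probe set was not called in EGFR loss or between the EGFR transgenes. cv-2, which encodes an extracellular BMP regulator, changed by 0.94 (0.038), a call that ended without wild type A replicate 1 (0.13) or 2 (0.13) or EGFR loss replicate 1 (0.087) or 2 (0.12). Between EGFR gain and EGFR loss, where 2.1% of all probe sets were called, tkv was higher by 0.71 (0.0015, and 0.235 in a fit to the 6 arrays alone) and shn, a cofactor gene of BMP transcription, by 0.52 (0.012), where the call of shn ended without EGFR gain replicate 1 (0.056) or 3 (0.052) or EGFR loss replicate 2 (0.052).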

How the data were processed

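RNA was labelled from 3 µg per sample and hybridized to a first-generation Affymetrix Drosophila array. The authors' deposited table holds log2 values of 14010 probe sets on 18 arrays, 44 of them controls. Per the submitters' processing notes the affy package was used. The background correction and summary are not given in the sources used here, and the values carry no detection calls, so folds between dim values depend on the authors' background handling. No further normalization was applied. Probe sets were named from the platform table and the Release 6 gene table. Of the fly probe sets 12442 had 1 gene, of which 12393 matched through the gene number, 4 through the symbol and 38 through an older symbol, and 7 kept their older name. Bounds on folds used, per EGFR loss array, the higher of the gene's value and the brightest mouse control, a choice made after the values were seen. They compare group means and carry no sampling error. A gene with several probe sets was represented by the brightest.

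limma 3.58.1 (R 4.3.3) was run on the 13966 fly probe sets with a mean for each of 6 groups and 12 residual degrees of freedom, with Benjamini-Hochberg adjustment over all of them and a call at an adjusted p under 0.05. The fit was tested on simulated data. These gave each probe set the same SD in every group and held changes only in brighter probe sets. The test therefore does not cover dim probe sets or an SD that differs between groups, as that of mirr does. Within the lists, genes were named if fixed or among up to 4 largest called, except that ac, sc and achi were named after their values were seen. The genes most like a member were the 5 highest and 3 lowest correlations for mirr and the 3 highest for ara and caup. Same-numbered arrays did not deviate together (correlations -0.02 to 0.09), so numbers were not taken as pairs. The members and lists were chosen with earlier results of these data known. Alternatives for genes other than the members were added after the data were seen.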

Additional observations from a re-analysis of the deposited data

How the results depend on the processing

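For mirr, the lower value in EGFR loss against wild type A and against BMP gain, and the higher value in EGFR gain than in EGFR loss, passed the threshold under every alternative but the fit to the arrays of the comparison alone, single arrays left out included. That fit gave the same changes, -2.74, -2.58 and 3.03, at adjusted p of 0.13, 0.15 and 0.15. The EGFR loss response minus the BMP loss response of mirr (-2.69) was not called in the fit to its arrays alone (0.16) or with the replicate block (0.061), and ranged from -3.14 to -2.40 with single arrays left out. caup in EGFR loss minus BMP gain (-2.02) was called with an intensity trend (0.044) and with dim probe sets left out (0.048), and ranged from -2.43 to -1.78 with single arrays left out. ara changed sign in EGFR gain minus BMP gain with array weights (-0.21), quantile normalization (-0.012) and raised dim values (-0.17), and in EGFR loss minus BMP gain with array weights (-0.16). With single arrays left out the sign turned in uncalled differences. They ranged from -0.22 to 0.055 for mirr in BMP loss, -0.23 to 0.052 for mirr between the BMP responses, -0.42 to 0.76 for ara in EGFR gain minus BMP gain, -0.89 to 0.043 in EGFR gain minus EGFR loss, -0.10 to 1.08 in EGFR loss minus BMP gain and -0.22 to 0.96 in BMP gain, and from -0.058 to 0.60 for caup in BMP gain. The replicate block changed no other call of these genes. Among the other genes named it ended the calls of kek1 (0.064) and cv-2 (0.063). The causes were not tested.

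The numbers of called probe sets moved more. Fitted on its own arrays only, a comparison called 62 in EGFR gain (392 over all arrays), 28 in EGFR loss (443), 95 in BMP gain (334), 55 in BMP loss (320), 2 in EGFR gain minus EGFR loss (293), 41 in EGFR gain minus BMP gain (178), 17 in EGFR loss minus BMP gain (279) and 8 in the EGFR loss response minus the BMP loss response (33). An intensity trend called 725 in EGFR loss, 488 in BMP loss, 446 and 281 in EGFR gain minus EGFR loss and minus BMP gain, 507 in EGFR loss minus BMP gain and 72 in the difference of loss responses. Array weights called 578 in BMP gain, raised dim values 437 in EGFR loss minus BMP gain and 64 in the difference of loss responses, and the replicate block 19 there. With single arrays left out the counts were 219 to 318 in EGFR gain (257 or fewer without EGFR gain replicate 1 or 2 or wild type A replicate 2 or 3), 233 to 438 in EGFR loss (295 or fewer without any wild type A array or EGFR loss replicate 2), 210 to 256 in BMP gain (221 or fewer without wild type A replicate 2 or 3) and 183 to 263 in BMP loss (212 or fewer without any BMP loss array or wild type B replicate 1). They were 173 to 270 in EGFR gain minus EGFR loss (174 or fewer without EGFR gain replicate 1 or 2), 89 to 138 in EGFR gain minus BMP gain (110 or fewer without any BMP gain array or EGFR gain replicate 1 or 2), 120 to 292 in EGFR loss minus BMP gain (183 or fewer without any BMP gain array or EGFR loss replicate 2) and 14 to 36 in the difference of loss responses (20 or fewer without wild type A replicate 2 or 3, wild type B replicate 3, EGFR loss replicate 1 or 2 or BMP loss replicate 1).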
